A study of Mus musculus with 22 samples.

Results

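Ion channels that open when a membrane is stretched or pressed were followed in fibroblasts sorted from mouse skin after surgery with or without an implanted expander. The genes were fixed by name: Piezo1, Piezo2, Trpv2, Trpv4, Trpc1, Tmem63a, Tmem63b and Kcnk2, which are 8 of the 55414 genes in the count table. They encode channels reported to answer mechanical force. All 8 passed the filter on low counts that left 17554 genes for testing.

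The data were bulk RNA sequencing of 22 libraries. Every mouse was operated on: in the EXP (expander surgery) groups a hydrogel that expands was stitched in place beneath the skin near the neck, and the CTRL (control surgery) groups had the same incision and subcutaneous path without the gel. There were 4 CTRL libraries on day 1, 3 on day 2 and 4 on day 4, against 5, 3 and 3 EXP libraries on those days. An age, a sex and a strain were not given in the labels. Sorting discarded the cells that stained for CD31, CD45, CD117 or EpCAM, and viable cells with surface CD34 and PDGFRα were collected, so fibroblasts low in either protein are not represented. Nothing in the labels ties each library to a separate mouse, so p-values measure the spread between libraries, which may in part be technical.

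Stretch-gated channels turn tension in the membrane into an ion current. PIEZO proteins are large trimers that pass calcium and other cations. Piezo1 is the widely expressed member, and Piezo2 is best known as the touch channel of sensory neurons and Merkel cells. TRPV2, TRPV4 and TRPC1 are cation channels of the TRP superfamily that respond to swelling, heat, lipids or stretch, although whether each is gated by force directly is debated. TMEM63A and TMEM63B belong to the OSCA and TMEM63 family and open at high membrane tension. Kcnk2 encodes TREK-1, a potassium channel with a pair of pore domains in each subunit, whose opening hyperpolarises the cell, so it acts against the depolarising cation channels. In skin, fibroblasts sense the stiffness and strain of the dermis and remodel its collagen.

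Tmem63a and Kcnk2 fell in EXP on all 3 days, and Trpv4 rose on days 2 and 4. The regions around their transcription starts are shown because these are the 3 genes on which the comparison turns. They come from RefSeq on GRCm38.p6 and run from 250 bases before to 50 after an annotated start, 5′ to 3′ on the gene's strand. Capitals mark 4 motifs searched on both strands, namely TATAAA (bound by TBP, in 13.6% of all 32851 promoter windows of this length), GGGCGG (a GC box, in 35.7%), TGACTCA (an AP-1 site, in 5.2%) and GGAATG (a TEAD site, in 14.7%).
Tmem63a, chr1:180942268-180942567, plus strand: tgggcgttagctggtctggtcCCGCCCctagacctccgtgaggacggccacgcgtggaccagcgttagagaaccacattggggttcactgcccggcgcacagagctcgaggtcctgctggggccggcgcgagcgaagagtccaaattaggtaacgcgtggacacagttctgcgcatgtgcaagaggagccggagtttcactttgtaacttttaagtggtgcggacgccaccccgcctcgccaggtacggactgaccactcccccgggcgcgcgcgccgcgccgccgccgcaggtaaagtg
Kcnk2, chr1:189402224-189402523, minus strand: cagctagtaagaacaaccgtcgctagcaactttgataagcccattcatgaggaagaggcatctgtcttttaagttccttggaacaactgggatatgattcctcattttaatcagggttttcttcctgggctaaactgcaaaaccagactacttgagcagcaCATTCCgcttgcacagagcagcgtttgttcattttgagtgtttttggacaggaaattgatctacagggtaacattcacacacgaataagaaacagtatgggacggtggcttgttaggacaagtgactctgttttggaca
Trpv4, chr5:114658372-114658671, minus strand: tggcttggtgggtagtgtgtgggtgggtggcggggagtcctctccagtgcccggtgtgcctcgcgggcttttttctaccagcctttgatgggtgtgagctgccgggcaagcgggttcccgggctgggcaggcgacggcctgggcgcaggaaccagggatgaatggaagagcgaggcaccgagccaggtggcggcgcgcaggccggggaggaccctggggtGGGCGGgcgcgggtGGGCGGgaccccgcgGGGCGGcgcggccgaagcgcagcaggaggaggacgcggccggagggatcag
The Tmem63a window was 65.0% G and C with 33 CpG pairs and held 1 GC box and none of the other motifs. The Kcnk2 window, the most upstream of 4 listed starts, was 43.0% G and C with 6 CpG pairs and held 1 TEAD letter match and no GC box. Of the other Kcnk2 starts, the second held 1 AP-1 match, the third held 1 GC box and the fourth held none of the motifs. The Trpv4 window was 73.0% G and C with 30 CpG pairs and held 3 GC boxes. The median of all windows was 52.7% G and C with 7 CpG pairs. Tmem63a and Kcnk2 shared no searched motif in the windows printed, but the third Kcnk2 start held a GC box, as the Tmem63a window did. A letter match is not a binding site, and the count table cannot tell which Kcnk2 start was used. Of the 8 genes, 7 had at least 1 window in RefSeq. Piezo2 had none.

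Levels are given as CPM, the usual counts per unit of library size, after library totals were scaled by edgeR's TMM factors (trimmed mean of M-values). Fold changes are EXP against CTRL from edgeR's quasi-likelihood test, fitted on all 22 libraries, and a gene is called at a Benjamini-Hochberg adjusted p under 0.05 over all 17554 genes. Total counts per library ran from 21461294 to 30210204, and 3 counts, taken as the smallest detectable level, were 0.0805 to 0.157 CPM, which covers counting error only. Transcripts of the gating proteins followed the sort: Pdgfra was at 227 to 1023 CPM and Cd34 at 217 to 2348 CPM, while Pecam1 (CD31), Ptprc (CD45), Kit (CD117) and Epcam were at or below 3.68, 0.243, 0.699 and 2.09 CPM. The libraries also fell on either side of a gap in the mean log2 CPM of 192 genes that follow Rnf10 within groups, with 7 on the high side (day 1 CTRL replicates 1 to 3, day 1 EXP replicates 1 and 2, and day 4 CTRL replicates 3 and 4) and 15 on the low side. The origin of this split is not given in the labels, and its part in the results below was not tested beyond the values given with each gene. Comparison within 1 side of the split called 2210 of 15942 genes on day 1 and 1 of 16462 on day 4. A channel not called there on day 4 therefore cannot be told from almost any other gene.

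Of the 8 channels, 2 were called on day 1, both lower in EXP. Across all tested genes 28.6% were called that day, 13.9% higher and 14.7% lower. On day 2, 3 were called, 1 higher and 2 lower, where the background was 13.4% called, 7.72% higher and 5.71% lower. On day 4, 3 were again called, 1 higher and 2 lower, where 22.5% of genes were called, 12.8% higher and 9.66% lower. The day 1 share of the channels was near the background, and with 8 genes the day 2 and day 4 shares amount to 1 or 2 genes more than it. The median log2 fold change of the channels was -0.36, 0.0054 and 0.011 on days 1, 2 and 4, beside 0.017, 0.021 and 0.031 for all tested genes. The calls lay in 3 genes, and the other 5 were called on no day.

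**Figure D1:**
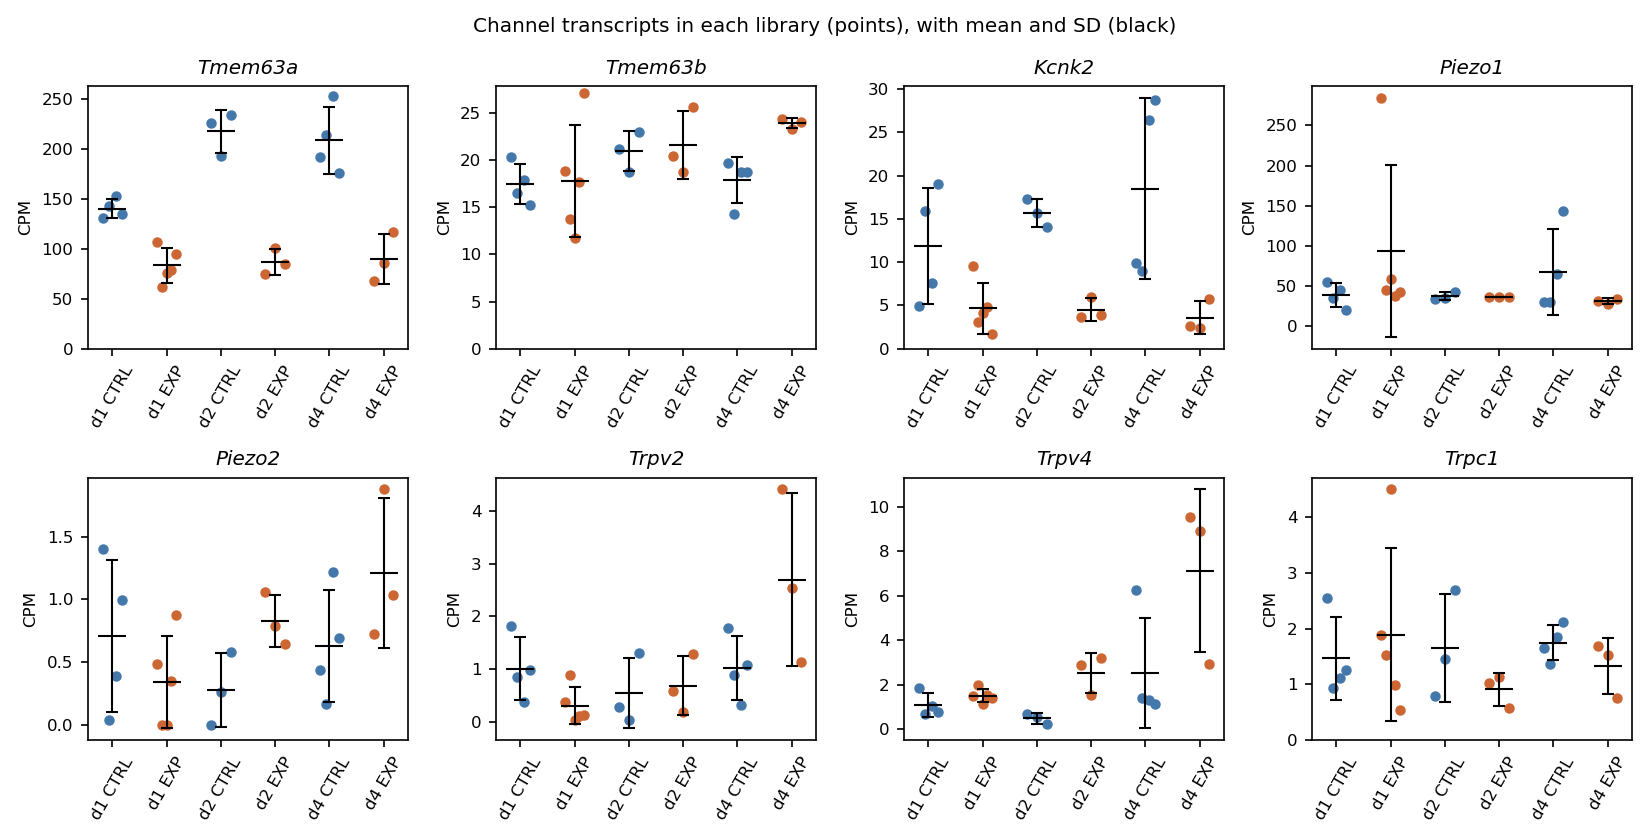
Each panel plots 1 channel gene as CPM (vertical axis) in the 6 groups of day and surgery, with CTRL libraries as blue points, EXP libraries as orange points and black marks for the mean and SD. Tmem63a lay lower in every EXP library than in every CTRL library of the same day, and a single day 1 EXP library reached 284 CPM of Piezo1.

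**Figure D2:**
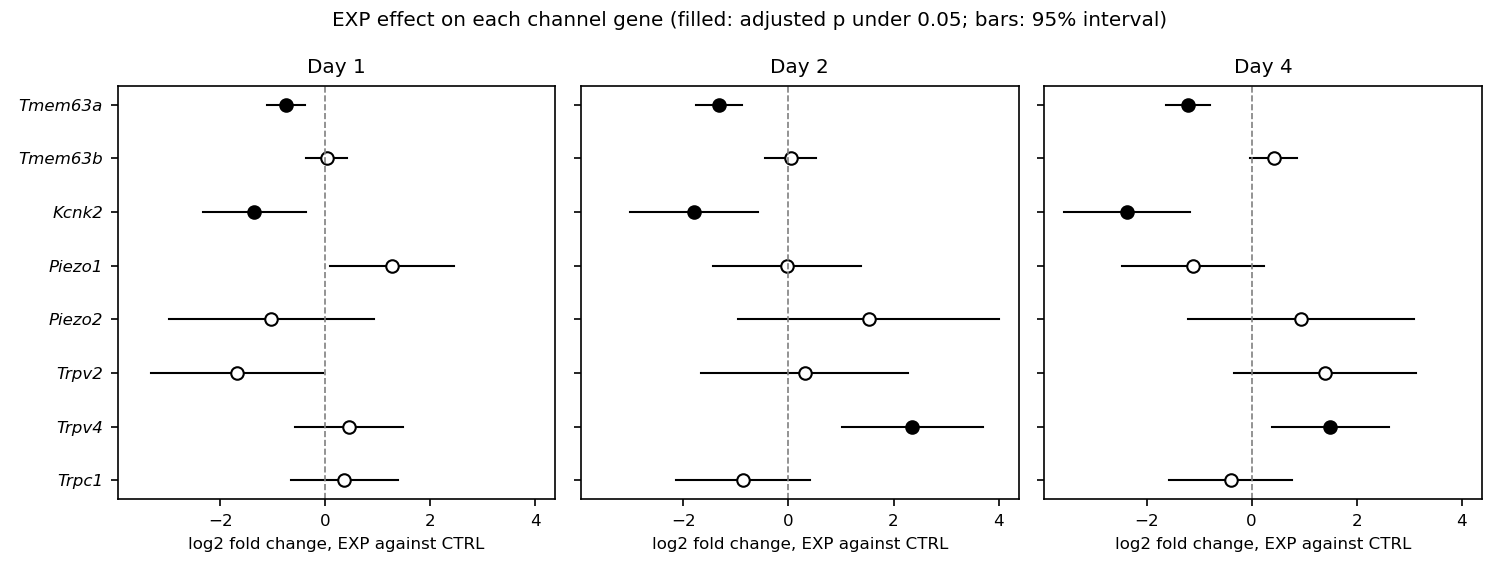
Log2 fold change of EXP against CTRL (horizontal axis) for each channel gene on days 1, 2 and 4, with bars for the 95% interval and filled points for an adjusted p under 0.05. Tmem63a and Kcnk2 were filled and below 0 on all 3 days, and Trpv4 was filled and above 0 on days 2 and 4.

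Tmem63a, which encodes a TMEM63 channel activated by high membrane tension, had the lowest adjusted p of the 8 channels on each day. On day 1 its level was 130.4, 142.8, 153.1 and 134.9 CPM in the CTRL libraries and 107.1, 62.1, 75.8, 78.5 and 94.7 CPM in the EXP libraries. On day 2 it was 226, 193 and 234 CPM in CTRL and 74.7, 101.0 and 84.4 CPM in EXP. On day 4 it was 192, 214, 253 and 176 CPM in CTRL and 67.7, 85.6 and 117 CPM in EXP. Every EXP library lay below every CTRL library of its day, and the CTRL libraries of days 2 and 4 all lay above those of day 1. Groups were separate for 1 of the 8 channels on day 1 (Tmem63a), 4 on day 2 (Tmem63a, Kcnk2, Trpv4 and Piezo2) and 3 on day 4 (Tmem63a, Kcnk2 and Tmem63b), beside 23.9%, 39.3% and 25.5% of all tested genes.

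Mean Tmem63a (± SD) on day 1 was 140.3 ± 9.95 CPM over the 4 CTRL libraries and 83.6 ± 17.5 CPM over the 5 EXP libraries, and its log2 fold change was -0.75 ± 0.17 (SE; edgeR adjusted p = 0.00256). On day 2 the means were 217.5 ± 21.7 and 86.7 ± 13.3 CPM (n = 3 each), and the log2 fold change was -1.33 ± 0.21 (edgeR adjusted p = 6.09e-04). On day 4 they were 208.8 ± 33.7 CPM (n = 4) and 90.0 ± 24.8 CPM (n = 3), and the log2 fold change was -1.21 ± 0.20 (edgeR adjusted p = 5.92e-04). EXP was thus 1.68, 2.51 and 2.32 times lower on the 3 days. The call held when any single library was left out, with an edgeR adjusted p of at most 0.0104. Within the libraries of 1 side of the split the size was similar, -0.79 on day 1 (3 CTRL, 2 EXP) and -1.175 on day 4 (2 CTRL, 3 EXP), with edgeR adjusted p of 0.0742 and 0.158.

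The cells compared also differed in fibroblast transcripts. The 7 fibroblast markers (Pdgfra, Cd34, Col1a1, Col1a2, Dcn, Lum and Dpt), all detected in every library, summed to 138304 to 191510 CPM in day 1 CTRL and 73837 to 117486 CPM in day 1 EXP. On day 2 the sums were 236564 to 288710 in CTRL and 48498 to 120212 in EXP, and on day 4 they were 188522 to 249176 in CTRL and 40885 to 185088 in EXP. These sums were lower in each EXP group, as Tmem63a was, with no overlap between the groups on any day. The markers did not move as one. Pdgfra rose, by 0.84, 1.71 and 0.79 on the log2 scale on days 1, 2 and 4 (edgeR adjusted p 0.0154, 0.00134 and 0.0456). Cd34, also used in the sort, was lower (-1.74, -2.07 and -0.93, edgeR adjusted p 8.1e-04, 0.00379 and 0.0948). Col1a1 fell (-0.99, -1.85 and -1.13, edgeR adjusted p 0.0319, 0.00693 and 0.0450). Dcn was called lower on days 2 and 4, Lum on day 4 alone and Dpt on no day. Col1a1 and Col1a2 reached the highest levels, 134924 and 128149 CPM, and so weigh most in the sums. The part of these markers in the Tmem63a and Kcnk2 results was not tested. In bulk libraries, fewer cells of a type that expresses a gene and less of its RNA per cell cannot be told apart.

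Tmem63b, the close relative of Tmem63a, did not follow it. Its level was 20.3, 16.5, 17.9 and 15.3 CPM in day 1 CTRL and 18.8, 13.7, 11.8, 17.7 and 27.1 CPM in day 1 EXP. It was 21.2, 18.8 and 23.0 CPM in day 2 CTRL and 20.4, 18.7 and 25.7 CPM in day 2 EXP. On day 4 it was 19.7, 14.3, 18.8 and 18.8 CPM in CTRL and 24.3, 23.3 and 24.0 CPM in EXP, so that the EXP libraries lay above the CTRL libraries on day 4 alone. The log2 fold changes were 0.027, 0.041 and 0.42, and the day 4 difference did not pass the test (edgeR adjusted p = 0.166). The 95% intervals were -0.37 to 0.42, -0.44 to 0.52 and -0.028 to 0.86, none of which reaches the fall of Tmem63a on the same day. With library totals in place of TMM scaling, which raised the median log2 fold change of all genes to 0.207, 0.489 and 0.363 on days 1, 2 and 4, the day 4 difference was 0.755 and passed (edgeR adjusted p = 0.0190). Exons of Tmem63b overlap those of Mrpl14, a mitochondrial ribosomal protein gene on the opposite strand with 190 to 854 counts. Mrpl14 was higher in day 4 EXP (log2 fold change 0.92 ± 0.27 SE, edgeR adjusted p = 0.0182), and whether counting used strand is not given in the sources used here.

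Kcnk2, the gene of the TREK-1 potassium channel, had a larger fitted fall than Tmem63a on each day but varied more between libraries. The falls were not tested against each other, and their 95% intervals overlapped on each day. Within 1 side of the split the order on day 1 was the other way. In day 1 CTRL Kcnk2 was at 4.99, 15.9, 7.55 and 19.0 CPM, and in day 1 EXP at 9.50, 3.11, 4.18, 4.87 and 1.64 CPM. In day 2 CTRL it was at 17.3, 15.7 and 14.0 CPM, and in day 2 EXP at 3.63, 6.02 and 3.91 CPM. In day 4 CTRL it was at 9.92, 9.01, 26.4 and 28.7 CPM, and in day 4 EXP at 2.60, 2.36 and 5.79 CPM. The groups overlapped on day 1 and were separate on days 2 and 4. The pair of high day 4 CTRL values belonged to replicates 3 and 4, the libraries on the high side of the split.

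Mean Kcnk2 (± SD) on day 1 was 11.9 ± 6.68 CPM over 4 CTRL libraries and 4.66 ± 2.97 CPM over 5 EXP libraries, and its log2 fold change was -1.35 ± 0.47 (SE; edgeR adjusted p = 0.0364). On day 2 the means were 15.7 ± 1.65 and 4.52 ± 1.31 CPM (n = 3 each), with a log2 fold change of -1.80 ± 0.59 (edgeR adjusted p = 0.0466). On day 4 they were 18.5 ± 10.5 CPM (n = 4) and 3.58 ± 1.91 CPM (n = 3), with a log2 fold change of -2.37 ± 0.58 (edgeR adjusted p = 0.00783). EXP was 2.54, 3.47 and 5.17 times lower on the 3 days.

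The direction of the Kcnk2 change held in every fit, but the call did not. Leaving out 1 library ended the day 1 call in 6 of 9 cases (CTRL replicates 2 and 4 and EXP replicates 2 to 5, edgeR adjusted p up to 0.135). It ended the day 2 call whichever of the 6 libraries was left out (edgeR adjusted p 0.0562 to 0.180), and the day 4 call without EXP replicate 1 (edgeR adjusted p = 0.0505). The day 1 call also ended with library totals (edgeR adjusted p = 0.0598), no filter on low counts (0.0964), only the libraries of that day (0.0589) or adipocyte markers as a term (0.0766). The day 2 call ended with library totals (edgeR adjusted p = 0.0752), no filter (0.129) or the adipocyte term (0.0740). Within 1 side of the split the log2 fold change was -0.62 on day 1 and -1.40 on day 4, with edgeR adjusted p of 0.490 and 0.197. Kcnk2 and Tmem63a correlated at r = 0.82 over the 22 libraries and at 0.33 after group means were removed, as a description of libraries that share their groups.

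Kcnk10 encodes TREK-2, the channel most closely related to TREK-1 and likewise opened by stretch, and moved the other way; it is named here after its values were seen. Its counts were 7, 1, 7 and 0 in day 1 CTRL and 30, 16, 18, 113 and 22 in day 1 EXP. They were 0 in all 3 day 2 CTRL libraries and 226, 59 and 200 in day 2 EXP. On day 4 they were 0, 0, 7 and 2 in CTRL and 86, 56 and 288 in EXP. The EXP libraries lay above the CTRL libraries on each day. Kcnk10 passed on days 1, 2 and 4 with edgeR adjusted p of 0.0147, 0.00135 and 0.00201, and leaving out any 1 library did not end a call. Its CTRL counts, 7 or fewer, were under the filter's minimum count of 10, so it entered the test through its EXP libraries alone. Because of this and the choice after its values were seen, these p-values and their stability only describe Kcnk10. Day 2 EXP, at 5.79 ± 3.00 CPM (SD, n = 3), was at least 39.4-fold higher than the level of 3 counts per library in day 2 CTRL. Within 1 side of the split Kcnk10 did not pass on day 1 or day 4 (fitted log2 fold changes 2.05 and 10.06, edgeR adjusted p 0.144 and 0.141), nor on day 4 with adipocyte markers as a term (4.26, edgeR adjusted p = 0.0780). The fitted values for CTRL groups at or near 0 depend on the fit and are no bound.

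Trpv4, a calcium-permeable channel activated by swelling, warmth and lipid messengers, rose. In day 1 CTRL it was at 1.85, 0.678, 1.07 and 0.805 CPM, and in day 1 EXP at 1.50, 1.98, 1.16, 1.53 and 1.42 CPM. In day 2 CTRL it was at 0.697, 0.575 and 0.225 CPM, which are 14, 11 and 5 counts, and in day 2 EXP at 2.90, 1.53 and 3.22 CPM, which are 88, 39 and 85 counts. In day 4 CTRL it was at 6.24, 1.42, 1.34 and 1.13 CPM, and in day 4 EXP at 9.55, 8.89 and 2.93 CPM. The groups overlapped on days 1 and 4 and were separate on day 2, and day 4 CTRL replicate 1 lay above day 4 EXP replicate 3.

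The log2 fold change of Trpv4 was 0.46 ± 0.50 (SE) on day 1, with an edgeR adjusted p of 0.524. It was 2.36 ± 0.65 on day 2, a 5.12-fold difference with an edgeR adjusted p of 0.0192. On day 4 it was 1.50 ± 0.53, a 2.82-fold difference with an edgeR adjusted p of 0.0481. The day 2 call ended without CTRL replicate 2 or 3 or EXP replicate 1 or 3 (edgeR adjusted p up to 0.0916). The day 4 call ended without CTRL replicates 2, 3 or 4 or EXP replicates 1 or 2 (edgeR adjusted p up to 0.193), and among the low-side libraries of day 4 the log2 fold change was 0.90 with an edgeR adjusted p of 0.544. Without the high day 4 CTRL replicate 1 the log2 fold change was 2.46. The day 4 call also ended with no filter on low counts (edgeR adjusted p = 0.0514), with only the libraries of that day (0.172) and with the split as a term (0.0829).

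Markers of other cells differed between the arms as well. On day 1 the adipocyte markers listed next summed to 1.82 to 24.9 CPM in CTRL (median 14.0) and 0.835 to 9.65 CPM in EXP (median 1.15). On the later days the direction was the other way. The summed level of 6 adipocyte markers (Adipoq, Plin1, Cfd, Cidec, Fabp4 and Lep, of which Lep was at 0 in 17 libraries) was 0.249 to 3.13 CPM in day 2 CTRL and 8.03 to 88.9 CPM in day 2 EXP, and 0.545 to 2.23 CPM in day 4 CTRL and 43.6 to 502 CPM in day 4 EXP. The order within day 4 EXP was the reverse of that of Trpv4: replicates 1, 2 and 3 had 43.6, 177 and 502 CPM of adipocyte markers and 9.55, 8.89 and 2.93 CPM of Trpv4. The order was not reversed within day 2 EXP, where replicate 2 was lowest in both. There replicates 1, 2 and 3 had 88.9, 8.03 and 14.6 CPM of markers and 2.90, 1.53 and 3.22 CPM of Trpv4. With the mean log2 level of these markers as a term in the fit, the log2 fold change of Trpv4 was 2.58 on day 2 (edgeR adjusted p = 0.0476) and 1.75 on day 4 (edgeR adjusted p = 0.164). With the same term Kcnk2 was at -2.86 on day 4 (edgeR adjusted p = 0.0706) and Tmem63a at -1.43 (edgeR adjusted p = 0.0157). The term took the calls over all genes from 2359 to 1535 on day 2 and from 3943 to 1251 on day 4. The marker sums did not overlap between the arms on those days. A channel call lost there with this term therefore cannot be told from a general loss. The 6 immune markers were Ptprc, Cd68, Adgre1, Lyz2, Cd3e and S100a8. Their sum was higher in EXP, at 2.10 to 12.7 CPM over the CTRL libraries and 13.9 to 36.6 CPM over the EXP libraries. Ptprc and Adgre1 were at 0 in 16 and 17 libraries, and Lyz2 was called on no day. Cd68 was called higher on days 1 and 2, Cd3e on day 4, and S100a8, at 4.74 CPM or less, on days 1, 2 and 4. S100a8 was at 0 in 10 of the 22 libraries, with fitted log2 fold changes of 6.18, 6.47 and 6.20. These rest on CTRL levels near 0, and the gene may have entered the test through its EXP libraries alone. Its calls therefore only describe it. The part of these markers was not tested.

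**Figure D3:**
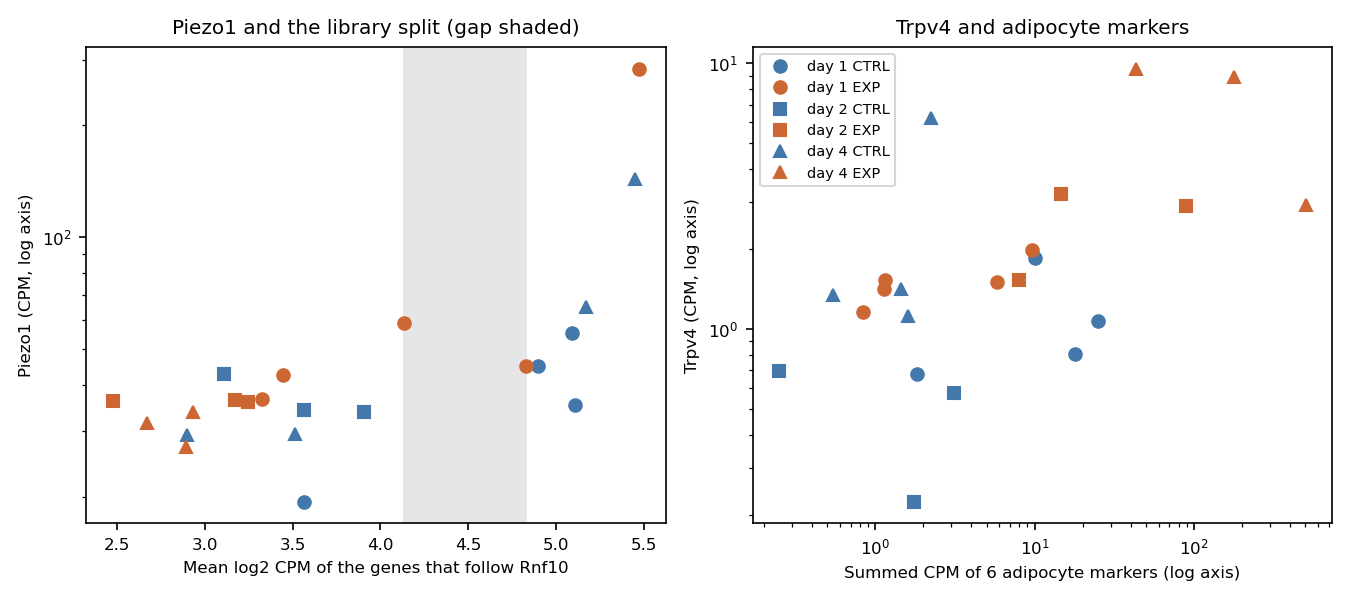
Left, Piezo1 (CPM, log axis) against the mean log2 CPM of the 192 genes that define the library split, with the gap shaded; right, Trpv4 (CPM, log axis) against the summed CPM of the adipocyte markers (log axis). Each point is 1 library, CTRL in blue and EXP in orange, and the shape gives the day; the highest Piezo1 values, 284 and 143 CPM, lay on the high side of the split, and the EXP libraries of day 4 had the highest marker sums apart from 1 day 2 EXP library.

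Piezo1, the principal stretch-gated calcium channel of non-neuronal cells, was not called on any day. In day 1 CTRL it was at 55.2, 35.3, 45.1 and 19.4 CPM, and in day 1 EXP at 284, 45.0, 58.7, 36.7 and 42.4 CPM. In day 2 CTRL it was at 33.9, 34.3 and 42.7 CPM, and in day 2 EXP at 36.1, 36.0 and 36.5 CPM. In day 4 CTRL it was at 29.3, 29.5, 64.9 and 143 CPM, and in day 4 EXP at 31.5, 27.2 and 33.9 CPM. Most libraries lay between 19.4 and 64.9 CPM irrespective of surgery, and 2 libraries stood far above, 1 from each arm.

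The log2 fold change of Piezo1 was 1.27 ± 0.57 (SE) on day 1, -0.030 ± 0.67 on day 2 and -1.11 ± 0.64 on day 4, with edgeR adjusted p of 0.101, 0.984 and 0.225. Leaving out 1 library moved the day 1 value between 0.27 and 1.49, and the lowest value was that without EXP replicate 1. On the 7 high-side libraries of the split Piezo1 was at 35.3 to 284 CPM (median 55.2), and on the 15 low-side libraries at 19.4 to 58.7 CPM (median 34.3). With the split as a term in the fit the day 1 value was 1.64 and passed (edgeR adjusted p = 0.00233), whereas the day 4 value went to -0.00707. DESeq2 also called day 1 (adjusted p = 0.0452). Among the low-side libraries alone the day 4 difference was 0.069. Piezo1 exons overlap those of Ctu2, a tRNA-thiolation gene on the opposite strand with 168 to 711 counts per library, beside 506 to 8138 for Piezo1. Ctu2 was higher in EXP on day 1 (log2 fold change 0.77, edgeR adjusted p = 0.00141) and day 4 (0.73, edgeR adjusted p = 0.00820), and its part in the Piezo1 counts was not tested.

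Piezo2 was near the limit of detection. It was at 1.40, 0.0424, 0.394 and 0.996 CPM in day 1 CTRL, at 0.489, 0, 0, 0.350 and 0.875 CPM in day 1 EXP, and at 0, 0.261 and 0.584 CPM in day 2 CTRL. It was at 1.06, 0.787 and 0.645 CPM in day 2 EXP, at 0.435, 0.172, 1.22 and 0.693 CPM in day 4 CTRL and at 0.725, 1.87 and 1.04 CPM in day 4 EXP. The day 2 EXP libraries lay above the day 2 CTRL libraries, and the groups overlapped on the other days. The log2 fold changes of -1.03 ± 0.94 (SE), 1.53 ± 1.19 and 0.93 ± 1.03 on days 1, 2 and 4 did not pass (edgeR adjusted p 0.440, 0.431 and 0.548). Merkel cells carry the channel in epidermis. Their 4 markers were Krt20, Krt8, Krt18 and Atoh1, of which Krt18 was at 0 in all 22 libraries and Atoh1 in 21. The markers summed to 0.9747 to 3.47 CPM in day 1 CTRL and 0 to 0.0955 CPM in day 1 EXP. The sums were 0.149 to 0.899 and 0 to 0.379 CPM in CTRL and EXP on day 2, and 0.686 to 1.69 and 0.107 to 1.28 CPM on day 4. The sums were lower in EXP on day 1 without overlap, where Krt20 was called and Krt8 was not. The part of these markers in the Piezo2 values was not tested.

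Trpv2, a cation channel found in many cells and abundant in macrophages and neurons, was also low. It was at 1.81, 0.848, 0.394 and 0.996 CPM in day 1 CTRL and at 0.384, 0.889, 0.0363, 0.127 and 0.146 CPM in day 1 EXP. It was at 0.299, 0.0522 and 1.30 CPM in day 2 CTRL and at 0.594, 0.197 and 1.29 CPM in day 2 EXP, and on day 4 at 1.79, 0.901, 0.335 and 1.08 CPM in CTRL and 4.40, 2.53 and 1.14 CPM in EXP. Groups overlapped on every day. The log2 fold changes were -1.68 ± 0.78 (SE), 0.31 ± 0.95 and 1.39 ± 0.83, with edgeR adjusted p of 0.114, 0.869 and 0.237. Without day 1 EXP replicate 2, the highest of its group, the day 1 value was -2.51 and passed (edgeR adjusted p = 0.0278).

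Trpc1, a cation channel that joins other TRPC subunits, was low in every group and was called on no day. It was at 2.56, 0.932, 1.11 and 1.26 CPM in day 1 CTRL and at 1.89, 1.54, 4.50, 0.987 and 0.547 CPM in day 1 EXP. It was at 0.797, 1.46 and 2.70 CPM in day 2 CTRL, 1.02, 1.14 and 0.569 CPM in day 2 EXP, 1.64, 1.37, 1.84 and 2.12 CPM in day 4 CTRL, and 1.69, 1.53 and 0.750 CPM in day 4 EXP. The groups overlapped on every day, and a single day 1 EXP library was the highest of all 22. The log2 fold changes were 0.37 ± 0.49 (SE), -0.86 ± 0.61 and -0.40 ± 0.56, with edgeR adjusted p of 0.613, 0.384 and 0.651.

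The effect of EXP was next compared between days. By a joint test of the differences between the day effects, 0 of 8 channels were called, where 8.82% of all genes were. At an unadjusted p under 0.05 edgeR gave 2, Piezo1 and Trpv2, with edgeR adjusted p of 0.168 and 0.175. The falls of Tmem63a and Kcnk2 were therefore not shown to differ between days (edgeR adjusted p 0.259 and 0.599), and neither was the rise of Trpv4 (edgeR adjusted p = 0.248). DESeq2 and limma voom likewise called 0, where they called 14.9% and 13.4% of all genes.

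Within each arm, change over the days was tested jointly for days 2 and 4 against day 1. In CTRL, 0 of 8 channels were called, where 0.291% of all genes were. At an unadjusted p under 0.05 edgeR gave 2, Trpv4 and Tmem63a, with edgeR adjusted p of 0.143 and 0.176. DESeq2 and limma voom each called 1, Trpv4 (DESeq2 adjusted p = 0.0240) and Tmem63a (limma adjusted p = 0.02805). They called 3.21% and 3.59% of all genes. In EXP, Trpv2 and Trpv4 were called, 2 of 8 channels beside 14.3% of all genes (edgeR adjusted p 0.0307 and 0.0127). Mean Trpv4 in EXP was 1.52 ± 0.295 CPM on day 1 (SD, n = 5), 2.55 ± 0.898 on day 2 (SD, n = 3) and 7.12 ± 3.65 on day 4 (SD, n = 3). Mean Trpv2 in EXP was 0.317 ± 0.345, 0.694 ± 0.553 and 2.69 ± 1.63 CPM on the same days. Leaving out day 4 EXP replicate 1 or 2 ended both calls (edgeR adjusted p up to 0.156 for Trpv2 and 0.0729 for Trpv4). Leaving out day 1 EXP replicate 1, 3, 4 or 5 ended that of Trpv2, and with the adipocyte markers as a term neither passed (edgeR adjusted p 0.119 and 0.0948). That term left 722 of all genes called within EXP in place of 2502, so these losses cannot be told from a general one. Tmem63a in EXP stayed within 83.6 to 90.0 CPM as a group mean. Day and any processing batch by day cannot be told apart.

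Levels were compared between channels only per kilobase of annotated exon. Tmem63a was highest in all 6 groups, at 31.2, 48.4 and 46.5 CPM per kb in CTRL on days 1, 2 and 4 and 18.6, 19.3 and 20.0 CPM per kb in EXP. It stood clear of the next channel everywhere except in day 1 EXP, where the high Piezo1 library overlapped it. Piezo1, Tmem63b and, in CTRL, Kcnk2 formed a middle tier at 2.40 to 9.40 CPM per kb whose neighbours mostly overlapped. In EXP, Kcnk2 left this tier for 0.943, 0.914 and 0.725 CPM per kb, and its libraries overlapped those of Trpv4 on each day. In day 4 EXP the mean of Trpv4, 1.75 CPM per kb, was above that of Kcnk2. Trpv2 and Trpc1 lay between 0.0706 and 0.600 CPM per kb, with their libraries overlapping in every group but day 4 EXP. Piezo2 was lowest throughout, at 0.0164 to 0.0706 CPM per kb. With the length of the longest transcript in place of all exons, Tmem63a stayed highest and Piezo2 lowest.

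**Figure D4:**
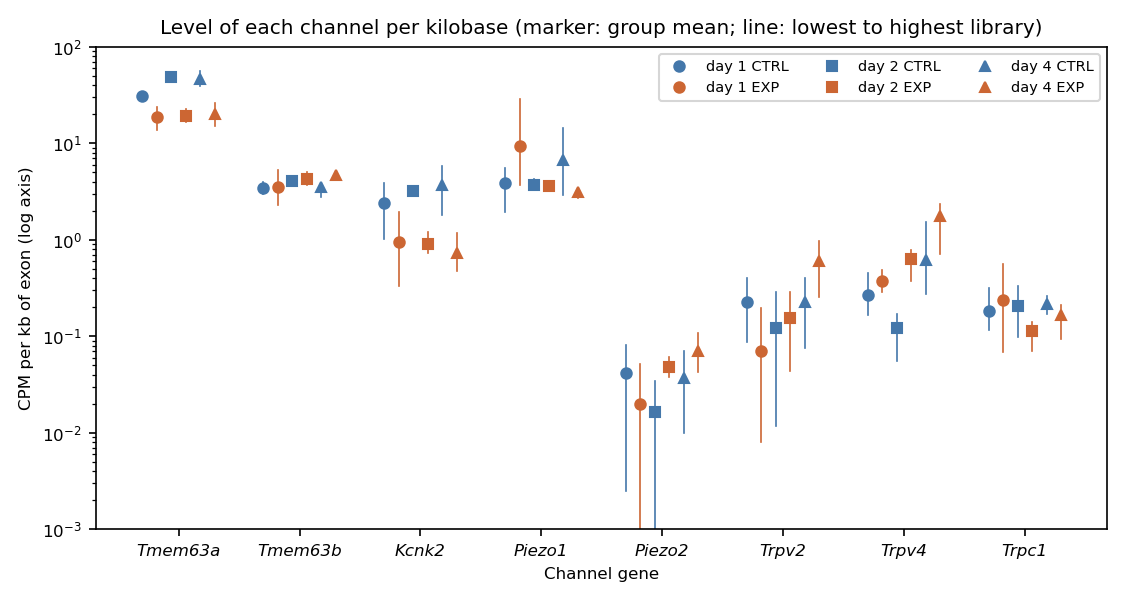
CPM per kilobase of exon (vertical log axis) of each channel gene (horizontal axis), with a marker for each group mean, blue for CTRL and orange for EXP, and a line from the lowest to the highest library, cut at the lower edge where a library is at 0. Tmem63a was highest at 18.6 to 48.4 CPM per kb, and Piezo2 lowest at 0.0164 to 0.0706 CPM per kb.

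For each channel, the pair of genes most like it was found by Pearson correlation of log2 CPM over the 22 libraries, a description in which all points share their groups. Tmem63a was most like Mamdc2, an extracellular matrix protein gene (r = 0.96), and Slc2a10, a sugar transporter gene (r = 0.96). Kcnk2 was most like Sec1 and 9330159F19Rik (r = 0.90 each). Trpv4 was most like Angpt1, which encodes the vascular ligand angiopoietin-1 (r = 0.85), and Tspan12 (r = 0.85). Piezo1 was most like Klhl21 (r = 0.93) and Rbms1 (r = 0.92), and Tmem63b like Gm26797 and Btbd3 (r = 0.82 each). The low channels had weaker likeness, in sparse counts. Trpv2 was most like Tek, an endothelial receptor gene (r = 0.82), and 8430429K09Rik (r = 0.81), and Piezo2 like Sipa1l1 (r = 0.80) and Clec14a, an endothelial gene (r = 0.80). Trpc1 was most like Rbm15b and Filip1l (r = 0.74 each). The 5 endothelial markers (Pecam1, Cdh5, Kdr, Vwf and Cldn5) summed to 0.0449 to 3.84 CPM in 20 of the libraries and to 6.64 and 10.2 CPM in day 4 EXP replicates 3 and 2, and their part in Trpv2 and Piezo2 was not tested.

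Genes that work around these channels were read from lists. Of 23 other TRP channels only 9 were tested, and the calls were 2 for higher on day 1, 1 for lower on day 2 and 1 for higher on day 4, so that each share of the 9 was under that of all genes (28.6%, 13.4% and 22.5%). Mcoln2, an endolysosomal cation channel, was at 70.7 ± 11.6 CPM in day 1 CTRL and 444 ± 38.3 CPM in day 1 EXP (SD over 4 and 5 libraries). It rose on day 1 by a log2 fold change of 2.65 (edgeR adjusted p = 1.23e-05) and kept that call under every setting tried. It was not called on day 2 (0.73, edgeR adjusted p = 0.184) or day 4 (-0.43, edgeR adjusted p = 0.373). Its effect differed between days (edgeR adjusted p = 0.00131). Trpm4, a calcium-activated cation channel, fell on day 2 (log2 fold change -0.71, edgeR adjusted p = 0.0414), a call that ended without any single day 2 library except CTRL replicate 2 (edgeR adjusted p up to 0.135). Of 13 other K2P channels (potassium channels of the Kcnk2 family) 3 were tested, Kcnk5, Kcnk6 and Kcnk10. Kcnk5 rose on day 1 (0.82, edgeR adjusted p = 0.0347) and day 4 (1.15, edgeR adjusted p = 0.0136), and Kcnk6 fell on day 1 (-1.14, edgeR adjusted p = 0.0146) and day 2 (-1.35, edgeR adjusted p = 0.0369). The Kcnk5 call ended without CTRL replicate 1, 2 or 4 or EXP replicate 2 on day 1 (edgeR adjusted p up to 0.117) and without EXP replicate 1 or 2 on day 4 (up to 0.0791). The day 2 call of Kcnk6 ended without CTRL replicate 1 or 3 or EXP replicate 1 or 3 (edgeR adjusted p up to 0.189).

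Of 17 other channels reported to answer stretch or swelling, 13 were tested. On day 1, 1 was higher and 1 lower: Gja1, the connexin 43 gene (0.61, edgeR adjusted p = 0.0466), and Lrrc8e, a subunit of the volume-regulated anion channel (-1.01, edgeR adjusted p = 0.00415). None was called on day 2. The 4 calls of day 4 were 1 for a rise and 3 for a fall, among them Pkd1, the polycystin-1 gene (-1.99, edgeR adjusted p = 0.0174), whose exons overlap those of Tsc2 on the opposite strand. Gja1 was among the day 4 falls as well (-0.72, edgeR adjusted p = 0.0469), opposite to its day 1 rise, and its effect differed between days (edgeR adjusted p = 0.0411); it is named on day 4 after its values were seen. The day 4 Gja1 call ended without any single day 4 library except CTRL replicate 1 and EXP replicate 3 (edgeR adjusted p up to 0.249), and also with library totals, no filter, only the libraries of that day or the split or adipocyte markers as a term. Its difference between days was lost without any 1 of 11 of the 22 libraries (edgeR adjusted p up to 0.101) and with keratinocyte or adipocyte markers as a term. The 2, 0 and 4 called of 13 stand beside 28.6%, 13.4% and 22.5% of all genes on days 1, 2 and 4. Of 9 PIEZO partners and modulators, 7 were tested. Stoml1, a stomatin-like protein gene, fell on day 1 (-0.72, edgeR adjusted p = 0.00686), Atp2a2, which encodes the SERCA2 calcium pump, rose on day 1 (0.84, edgeR adjusted p = 0.00544), and Stoml2 rose on day 4 (0.54, edgeR adjusted p = 0.0455). None of these partners was called on day 2, and the 2, 0 and 1 called of 7 were at or under the shares of all genes given for the previous list. The day 1 Gja1 call ended without any single day 1 library except CTRL replicate 2 and EXP replicates 2 and 3 (edgeR adjusted p up to 0.126). On day 4 the Pkd1 call ended without CTRL replicate 3 or EXP replicate 1 or 2 (edgeR adjusted p up to 0.0909), and the Stoml2 call without any single library except CTRL replicate 2 and EXP replicate 3 (edgeR adjusted p up to 0.23).

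Downstream of calcium entry, 16 of 20 genes of calcium stores, store-operated entry and pumps were tested, with 2 rises and 3 falls on day 1, 1 rise on day 2, and 1 rise and 5 falls on day 4, beside 28.6%, 13.4% and 22.5% of all genes called. Orai2, a pore subunit of store-operated entry, rose on day 1 (1.06, edgeR adjusted p = 0.0169) and day 2 (2.31, edgeR adjusted p = 0.00103), while Stim1, the store sensor that gates ORAI channels, fell on day 1 (-1.14, edgeR adjusted p = 0.00483) and day 4 (-1.11, edgeR adjusted p = 0.0223). All 22 genes of calcium sensing and the calcineurin-NFAT route were tested, with 0 higher and 3 lower on day 1, 1 and 1 on day 2, and 2 and 3 on day 4, so that the share of the 22 called was under or near that of all genes on each day. Camk2a, a calcium-dependent kinase gene, fell on day 1 (-2.14, edgeR adjusted p = 0.0102) and day 2 (-2.71, edgeR adjusted p = 0.0189). Rcan2 rose on day 2 (3.05, edgeR adjusted p = 0.0131) and Rcan1 on day 4 (1.19, edgeR adjusted p = 0.0417), both regulators of calcineurin. Nfatc1, an NFAT transcription factor gene, fell on day 4 (-2.51, edgeR adjusted p = 0.0252) with CTRL at 261 ± 230 CPM (SD, n = 4). Single libraries decided several of these calls. The day 4 calls ended for Stim1 without CTRL replicate 1 or 3 or EXP replicate 1 or 2 (edgeR adjusted p up to 0.119), for Rcan1 without CTRL replicates 1, 2 or 3 or EXP replicates 1 or 2 (up to 0.572), and for Nfatc1 without CTRL replicate 3 or 4 or EXP replicate 1 or 2 (up to 0.120). The day 2 calls ended for Camk2a without EXP replicate 1 or 3 (edgeR adjusted p up to 0.0846) and for Rcan2 without CTRL replicate 2 or 3 or EXP replicate 1 (up to 0.0586).

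Of 10 focal adhesion and cytoskeletal linker genes, which carry force from integrins to actin, all were tested, with 5 higher and 0 lower on day 1, 3 and 0 on day 2, and 2 and 1 on day 4. Zyx, the zyxin gene, rose on day 1 (1.07, edgeR adjusted p = 0.0210). It also rose on day 2 (1.59, edgeR adjusted p = 0.0138) and day 4 (2.26, edgeR adjusted p = 6.97e-04). Tln2, a talin gene, rose on day 1 (0.93, edgeR adjusted p = 0.0485). Its rise was also called on day 2 (2.06, edgeR adjusted p = 0.00412) and day 4 (2.29, edgeR adjusted p = 8.34e-04). Bcar1, the p130Cas gene, fell on day 4 (-0.98, edgeR adjusted p = 0.00912). The median log2 fold change of this list was 0.51, 0.076 and 0.29 on the 3 days, above the medians of all genes given with the channels. The 5, 3 and 3 of 10 called stand beside 28.6%, 13.4% and 22.5% of all genes. On day 1 the count was 1 to 4 with any 1 library left out, beside 23.0% to 27.6% of all genes. The day 1 Zyx call ended without CTRL replicate 2 or 4 or EXP replicate 3 (edgeR adjusted p up to 0.0732). The Bcar1 call ended without EXP replicate 2 (edgeR adjusted p = 0.0536). The Zyx calls of days 2 and 4 and the day 1 Tln2 call were not examined this way. Among the low-side libraries of day 4 a single gene of the whole table was called, so these day 4 calls could not be checked within 1 side. With the split as a term 2887 of 17554 genes were called on day 4. Over the 11 alternatives apart from leaving out a library, the day 4 call was lost in 7 for Stoml2 and Gja1 and 6 for Nfatc1. It was lost in 5 each for Pkd1, Stim1 and Rcan1, 3 for Bcar1, 2 for Kcnk5 and 1 for Tln2. The day 4 log2 fold change ran from -2.54 to -0.56 for Nfatc1 and -2.03 to -0.87 for Pkd1.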

How the data were processed

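The file deposited by the authors holds unnormalised counts by gene, with 1 column for each of 22 libraries and 0 columns of other samples. Per the submitters' processing notes, reads were trimmed with Trimmomatic and the build was mm39, and per the labels the libraries were ultra-low-input and paired-end; the aligner, the counter, the annotation release and strandedness are not given in the sources used here. Symbols (52081 of 55414 identifiers), exon lengths and exon overlaps came from GENCODE M21 on GRCm38, so lengths are approximate for these counts. Promoter windows came from RefSeq, and their coordinates are those of GRCm38.p6.

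Counts were fitted with edgeR 4.0.16 in R 4.3.3 (filterByExpr with a minimum count of 10, TMM, robust quasi-likelihood, a mean for each of the 6 groups, 16 residual degrees of freedom, no covariate), with Benjamini-Hochberg adjustment over 17554 genes. Log2 CPM for correlations used a prior count of 2. DESeq2 1.42.0, limma 3.58.1, other scalings and filters, covariates, a replicate block and each library left out were the alternatives. Within groups, pairs of libraries gave a chi-square of 26.7 to 403 per degree of freedom, so none was treated as a repeat of another. The genes and lists were chosen with earlier results of these data known. From the other lists, the called gene with the largest change per day and direction was named, among those with a mean of at least 5 CPM. Kcnk10, Mcoln2 on days 2 and 4, Gja1 on day 4, Zyx on days 2 and 4 and Tln2 on day 1 lie outside this rule.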

Additional observations from a re-analysis of the deposited data

Results flagged for a closer look

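In groups of 4 or 5 libraries, 24 group and gene combinations were examined for a library far from the others by Dixon's rule, and 3 were found where chance gives about 1.2. Day 1 EXP replicate 1 had 284.3 CPM of Piezo1, against 36.7 to 58.7 CPM in the other 4 libraries of its group. Day 4 CTRL replicate 1 had 6.24 CPM of Trpv4 (129 counts), against 1.13 to 1.42 CPM in the other 3. Day 4 CTRL replicate 2 had 14.33 CPM of Tmem63b (334 counts), against 18.8 to 19.7 CPM in the other 3, just past the critical value.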

How the results depend on the processing

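Tmem63a kept its direction and its call on all 3 days under every setting except comparison within 1 side of the library split, an alternative chosen after seeing the data, which has 5 libraries a day and called none of the channels on day 1 (0) or day 4 (0). On day 1, 2 channels were called, beside 28.6% of all tested genes. The count was 1 with library totals (29.2% of all genes) or no filter on low counts (12.1%). It was also 1 with only the day's libraries (29.7%) or adipocyte markers as a covariate (26.2%). DESeq2 and the split covariate called Piezo1 as well, where 32.3% and 27.8% of all genes were called. With a library left out the count was 1 to 2 (23.0% to 27.6%). On day 2 the 3 called, beside 13.4% of all genes, became 2 with library totals (26.4%), no filter (4.97%) or the adipocyte covariate (8.74%). With a library left out they became 1 to 2 (4.88% to 11.9%). On day 4 the 3 called became 4 with library totals, 2 with no filter, only the day's libraries or the split covariate, 1 with the adipocyte covariate and 1 to 3 with a library left out. Within CTRL, DESeq2 and voom each called 1 in place of 0, and 3.21% and 3.59% of all genes in place of 0.291%. Within EXP, the 2 called, beside 14.3% of all genes, became 1 in a fit of EXP alone (7.61%) and 0 with the adipocyte covariate (4.11%). With a library left out they became 0 to 2 (7.48% to 18.6%). In 1 alternative Piezo1 was also called, and the highest count over the alternatives was 3. The cause of these shifts was not tested.

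Same-numbered CTRL and EXP libraries were not shown to be pairs (correlations of deviations -0.066 to 0.164). With the replicate block 3, 3 and 2 channels were called on days 1, 2 and 4, beside 24.7%, 12.6% and 15.4% of all genes. Day 1 lost Kcnk2 (edgeR adjusted p = 0.0898) and gained Piezo1 (0.0320) and Trpv2 (0.0321), and day 4 lost Trpv4 (0.0798). Of all genes it called 401 in place of 1549 for differences between days. No block could be fitted for changes within an arm. The fit of only the libraries compared gives no value for differences between days.

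Directions turned only for channels that were not called. Trpc1 on day 1 was -0.15 by voom (-0.25 to 0.77 with a library left out), and 0.0062 on day 4 with the adipocyte covariate. Tmem63b on day 1 was -0.19 with the block and -0.20 within the split (-0.17 to 0.15 with a library left out), and on day 2 -0.11 to 0.13 with a library left out. Piezo1 on day 2 was 0.44 with library totals (-0.091 to 0.068 with a library left out), and 0.069 on day 4 within the split. Trpv2 on day 2 ranged from -0.48 to 1.93 with a library left out, and Piezo2 on day 4 was -0.17 with the adipocyte covariate. Library totals also raised the share of calls that were higher from 48.7% to 66.2% on day 1, 57.5% to 90.5% on day 2 and 57.0% to 80.7% on day 4. Counts of 1 to 164 per library in Trpv2 and 0 to 54 in Piezo2 limit what can be seen in these genes.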
